A study of Mus musculus with 11 samples.

Results

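Choroid plexus epithelial cells of juvenile and adult mouse brain were compared. The cells were selected by measured values, among cells with 501 to 5999 genes and under 25% mitochondrial UMIs (unique molecular identifiers, 1 for each captured transcript copy). A cell was taken as choroid plexus epithelium when Ttr made up at least 10% of its UMIs, when Folr1, Clic6 and Enpp2 together had at least 3 UMIs, and when the endothelial genes Cldn5 and Flt1 together had at most 2. By these limits 4581 of 50625 kept cells in 11 libraries were choroid plexus epithelium, and 3384 of the 24362 kept cells in the juvenile and adult libraries. The juvenile group held 4 libraries of mice at postnatal day 10 with 1940 such cells, and the adult group held 3 libraries of mice of 7 to 11 weeks with 1444. All mice were untreated C57BL/6, tissue of 6 mice was pooled for each of these samples, and the methods describe the mice as female unless stated otherwise. The tissue was labelled brain cortex, dissected after the meninges were dabbed off, digested with papain and Liberase and depleted of myelin, and single cells were captured with the 10x Chromium 3′ assay. The choroid plexus lies in the ventricles, outside the labelled cortex.

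The choroid plexus epithelium is a single layer of ciliated cells that secretes cerebrospinal fluid. It moves sodium, chloride, bicarbonate and water from blood to ventricle, it forms the barrier between blood and cerebrospinal fluid through tight junctions, and it exports transthyretin (Ttr, a carrier of thyroid hormone and retinol), growth factors and metal-binding proteins. In the mouse it forms before birth and goes on maturing in the first postnatal weeks.

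Several properties of the libraries touch every result. The 7 libraries held 15755504 to 23425535 UMIs, and the selected cells held 1767376 to 6721232 UMIs in each juvenile and 1402994 to 1847823 in each adult library. The juvenile cells were deeper, with median UMIs of 9368.5, 9851, 9066 and 7697.5 in Juvenile 1 to 4 against 2792.5, 2419 and 2778 in Adult 1 to 3, a difference that the limit on Cldn5 and Flt1 helped to set. That limit removed 54.6%, 46.0% and 50.8% of the cells that passed the other limits in Adult 1 to 3 and 7.31% to 10.8% in the juvenile libraries. Before it the medians were 7800.5 to 10299 UMIs in juvenile and 3882 to 5794 in adult libraries. Cldn5 and Flt1 made up 0.0556% to 0.0706% of the UMIs of the removed adult cells and 0.964% to 1.17% of those of adult endothelial cells. The counts of changed genes over all genes and in the gene lists are therefore also given at matched depth, for cells of 5000 to 15000 UMIs without that limit, an alternative chosen after seeing the data. Matched depth here means only this range, and the median depths of the ages within it were not compared. Ttr in other cells differed too. The median kept cell outside the selection held 5.58% Ttr in Adult 1, 1.74% in Adult 2 and 1.85% in Adult 3, against 0.487% to 0.977% in the juvenile libraries.

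Some libraries within an age were so alike that they were not taken as independent. Chi-square per degree of freedom between the summed counts was 1.28 for Juvenile 1 and 2, 1.47 for Juvenile 3 and 4 and 1.35 for Adult 2 and 3, against 3.82 to 4.43 for the other pairs of the same age. In endothelial cells these pairs gave 1.90, 2.40 and 1.46, against 7.58 to 11.6 for the others. Each of these 3 pairs was summed to 1 sample, which left 2 juvenile and 2 adult samples in the main test. Leaving out Adult 1 left 1 adult sample, so gene fits without Adult 1 are given by effect size only. Juvenile 3 and 4 also stood apart by Y-linked genes, with Ddx3y at 80.4 and 84.1 CPM (UMIs of a gene per 1000000 UMIs of the summed cells, adjusted by TMM factors) and 0 in the other 5 libraries, although the mice are described as female. The labels do not say that libraries came from separate pools of mice, so p-values measure the spread between these samples. Any 2 of the 7 libraries shared 10 to 31 cell barcodes, at most 0.817% of the smaller one.

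The plot of cell numbers and depth shows the shares of the selected cells beside both depth measures.

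**Figure D1:**
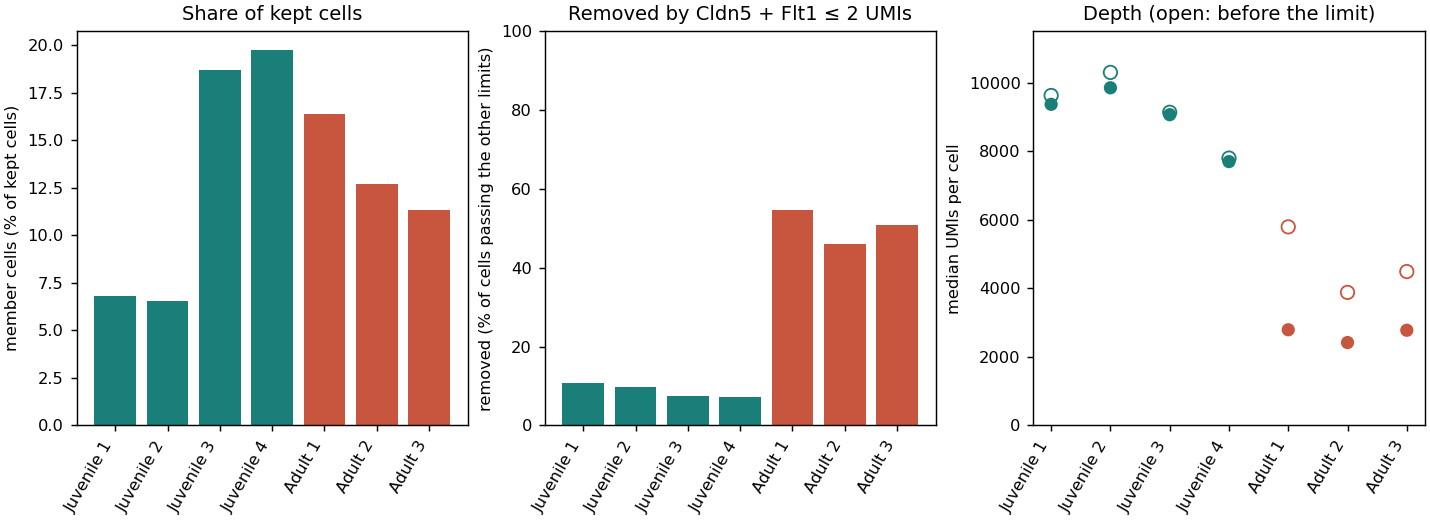
Choroid plexus epithelial cells by library (juvenile 1 to 4 and adult 1 to 3): their share of kept cells in percent, the percent of cells removed by the limit on Cldn5 and Flt1, and the median UMIs per cell with open markers for the value before that limit. Adult libraries lost 46.0% to 54.6% of cells to the limit and juvenile libraries 7.31% to 10.8%, and the juvenile medians of 7697.5 to 9851 UMIs lay above the adult medians of 2419 to 2792.5.

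The share of choroid plexus epithelium among kept cells was 6.80%, 6.54%, 18.7% and 19.8% in Juvenile 1 to 4 and 16.4%, 12.7% and 11.3% in Adult 1 to 3. The juvenile pairs lay on both sides of the adult values, and the mean difference of -0.536 percentage points was within the spread (exact permutation test, two-sided, p = 0.943, smallest possible p 0.0286). Leaving out 1 library turned its sign, from -2.81 without Juvenile 4 to 1.60 without Juvenile 2. Without the limit on Cldn5 and Flt1 the share was 36.1%, 23.5% and 23.1% in Adult 1 to 3 and 7.25% to 21.3% in the juvenile libraries (exact permutation test, p = 0.0857). The difference in median depth reached the smallest possible p (exact permutation test, p = 0.0286, adjusted over 4 tests 0.0381, and 0.333 with near-identical libraries averaged), as a description, since the limits bear on it.

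The genes of the limits are given as a description with no test. Ttr had a median of 31.3%, 33.5%, 31.2% and 30.9% of a cell's UMIs in Juvenile 1 to 4 and 36.4%, 37.4% and 36.1% in Adult 1 to 3. Enpp2, which encodes the lysophospholipase autotaxin, lay at 5723, 6179, 6398 and 6629 CPM in the juvenile libraries and 20143, 17507 and 17090 CPM in the adult libraries. Folr1, a folate receptor, lay at 928 ± 42.3 CPM in juvenile and 1139 ± 111 CPM in adult samples (SD, n = 2 samples each), and Clic6, an intracellular chloride channel protein, at 646 ± 49.9 CPM in juvenile and 545 ± 18.8 CPM in adult samples. Near the Ttr limit, 1, 1, 7 and 9 juvenile cells and 29, 5 and 1 adult cells passed the marker limits with 8 to 10% Ttr, and 1, 3, 7 and 10 juvenile and 7, 1 and 4 adult cells held 10 to 12%. The label held against markers outside the limits. Of 33 epithelial markers measured, 32 were higher in the juvenile selected cells than in kept cells outside the Ttr and marker limits, with a median of 26.8-fold, and all 33 in the adult cells, with a median of 12.9-fold. The exception was Ltc4s, which makes leukotriene C4, at 0.323-fold in juvenile libraries.

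Gene expression was compared by edgeR's quasi-likelihood test on UMIs summed over the cells of each sample, with Benjamini-Hochberg adjustment over 11199 genes. At an adjusted p of 0.05, 5629 genes (50.3%) differed, of which 3005 (26.8%) were higher and 2624 (23.4%) lower in juvenile cells. Of the calls 53.4% were higher in juvenile cells, and 69.0% without TMM factors, which moved the median of all genes by -0.25 on the log2 scale. With every library kept separate, 3249 genes were higher and 3063 lower. In cells of 5000 to 15000 UMIs, 3393 of 12063 genes (28.1%) were higher and 2927 (24.3%) lower. Among the genes called in the main comparison, 2784 of the 3005 higher and 2368 of the 2624 lower were called in the same direction at that depth, and 1 reversed. With Juvenile 1 and 2 as the only juvenile libraries, 2550 and 2209 were called again, and none reversed. That fit kept every library separate, so near-identical libraries counted as replicates in it. DESeq2 called 1816 genes higher and 1718 lower. Lowering the Ttr limit to 5% left 258 calls, with 1111 cells instead of 522 in Adult 1, where the other cells held a median of 5.58% Ttr.

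Free RNA was subtracted with a profile of the kept cells outside the Ttr and marker limits, scaled by microglia and macrophage markers, an alternative chosen after seeing the data. This profile made up 5.04% to 6.04% of the UMIs of juvenile and 15.9% to 17.8% of those of adult cells. The planned profile, of all other kept cells, made up 5.15% to 6.30% in juvenile and 29.5%, 20.9% and 23.6% in Adult 1 to 3, and left 2930 of 10123 genes higher and 1941 lower. After subtraction with the first profile 2833 of 10155 genes (27.9%) were higher and 2119 (20.9%) lower. Of the genes called in the main comparison, 2384 of the 3005 higher and 1820 of the 2624 lower were called again, 85 of the lower genes reversed and 450 of them no longer had enough counts. The subtraction could take away every adult UMI of a gene, as for H2-D1 in all 3 adult libraries, so a direction that reversed after it was not read as a higher juvenile level. Genes called lower in juvenile cells and also under their level in all other kept cells of the adult libraries numbered 1528 (13.6% of genes tested), and 1239 (11.1%) were called higher and under their level in other kept cells of the juvenile libraries, so a gene is said below to be epithelial when its level in the age where it was higher was at least that in all other kept cells of the same libraries. In the adult libraries those other cells include the ones removed for Cldn5 and Flt1.

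The 12 genes with the largest log2 fold change among epithelial genes higher in juvenile cells of at least 50 CPM and without overlap between the libraries came from a pool of 420 (3.75% of genes tested). Juvenile and adult libraries did not overlap for 6729 of all genes tested (60.1%). Several of the 12 encode matrix proteins. Npnt, which encodes the basement membrane protein nephronectin, lay at 100.3, 119, 106 and 115 CPM in the juvenile libraries and 6.27, 7.99 and 5.41 CPM in the adult libraries. The ages did not overlap, as the choice of genes required (log2 fold change 4.08, SE 0.23, adjusted p = 3.44e-07, no-limit value 3.46). A no-limit value is the log2 fold change without the limit on Cldn5 and Flt1, given where leaving that limit out moved the fold by over 1.5 times. Col27a1, a fibrillar collagen chain, lay at 69.5, 77.9, 68.8 and 79.5 CPM in the juvenile libraries and 3.42, 5.6 and 4.63 CPM in the adult libraries (log2 fold change 4.06, SE 0.26, adjusted p = 8.13e-07, no-limit value 3.18). Fbn1, the microfibril protein fibrillin, lay at 108 ± 1.3 CPM in juvenile and 9.56 ± 0.183 CPM in adult samples (log2 fold change 3.50, SE 0.21, adjusted p = 7.07e-07). Fras1, a basement membrane adhesion protein, showed 92.3 ± 0.629 CPM in juvenile and 10.9 ± 4.79 CPM in adult samples (log2 fold change 3.15, SE 0.25, adjusted p = 3.32e-06, no-limit value 2.09).

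Regulators of chromatin, RNA and growth signals were also among these 12. Dnmt3a, a de novo DNA methyltransferase, lay at 125, 132, 134 and 131 CPM in the juvenile libraries and 6.84, 6.4 and 8.5 CPM in the adult libraries (log2 fold change 4.18, SE 0.23, adjusted p = 3.44e-07). All juvenile values exceeded all adult ones, as the choice of genes required. The log2 fold change was 3.51 at matched depth and 2.64 without the limit on Cldn5 and Flt1. Pabpn1, a nuclear poly(A) binding protein whose gene overlaps a neighbouring read-through transcript and is uncertain for that reason, lay at 102 ± 6.12 CPM in juvenile and 6.13 ± 4.22 CPM in adult samples (log2 fold change 4.16, SE 0.31, adjusted p = 3.68e-06), and its log2 fold change was 2.05 without that limit. Wfikkn2, a secreted inhibitor of myostatin-type ligands, lay at 291, 231, 217 and 239.6 CPM in the juvenile libraries and 29.1, 20 and 22.4 CPM in the adult libraries (log2 fold change 3.30, SE 0.22, adjusted p = 8.28e-07). Grb10, an imprinted adaptor that dampens insulin and IGF receptor signalling, showed 118 ± 0.758 CPM in juvenile and 11.6 ± 3.68 CPM in adult samples (log2 fold change 3.39, SE 0.23, adjusted p = 9.70e-07, no-limit value 2.29). The others were Slc6a15, a neutral amino acid transporter (3.28), Cpeb2, a translational regulator (3.27, and 1.69 without the limit on Cldn5 and Flt1), Brwd3, a bromodomain protein (3.19, and 2.28 without it), and Nrep, a neuronal regeneration-related protein (3.11). All 12 were also called at matched depth, after both subtractions of free RNA and by DESeq2.

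The corresponding 12 genes lower in juvenile cells came from a pool of 618 (5.52% of genes tested). Cox8b, an isoform of a cytochrome c oxidase subunit known from muscle and brown fat, lay at 9.57, 9.94, 19.9 and 20.3 CPM in the juvenile libraries and 563, 778 and 882 CPM in the adult libraries. The adult values exceeded every juvenile value by more than an order of magnitude (log2 fold change -5.46, SE 0.37, adjusted p = 1.80e-05). Trf, the iron carrier transferrin, lay at 107, 111, 85.9 and 83.9 CPM in the juvenile libraries and 904, 972 and 898 CPM in the adult libraries (log2 fold change -3.25, SE 0.22, adjusted p = 8.28e-07). The juvenile Trf level was under that of the cells outside the Ttr and marker limits, at 0.359-fold, and the adult level above it, at 1.45-fold. Rdh5, a retinol dehydrogenase, lay at 67.5, 77.9, 70.5 and 71.9 CPM in the juvenile libraries and 524, 634 and 554 CPM in the adult libraries (log2 fold change -2.96, SE 0.20, adjusted p = 8.34e-07). Prlr, the prolactin receptor, lay at 50.9, 73.2, 95 and 93.3 CPM in the juvenile libraries and 427, 305 and 373 CPM in the adult libraries (log2 fold change -2.28, SE 0.23, adjusted p = 2.04e-05, no-limit value -2.99).

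Kcnj13, an inwardly rectifying potassium channel of the apical membrane, lay at 22.2, 43.4, 16.5 and 14.8 CPM in the juvenile libraries and 267, 117 and 116 CPM in the adult libraries. Adult 1 was above the other adult libraries and Juvenile 2 above the other juvenile libraries. The ages did not overlap, as the choice of genes required (log2 fold change -3.05, SE 0.66, adjusted p = 0.0322). The call was lost without Juvenile 1 (log2 fold change -2.88, adjusted p = 0.0914), at matched depth (-3.02, 0.0645) and with a Ttr limit of 20% (-2.98, 0.0509) or 5% (-2.26, 0.0610). It was also lost with Juvenile 1 and 2 as the only juvenile libraries, every library kept separate (-2.35, 0.0637). Without Adult 1 the log2 fold change was -2.38. The remaining genes were Hemk1, a methyltransferase of translation release factors (-2.95), Hopx, an atypical homeodomain protein (-2.93), Dstn, the actin-severing protein destrin (-2.73), Scg5, a secretory granule chaperone (-2.69), Dpp7, a lysosomal dipeptidase (-2.52), Mrps33, a protein of the mitochondrial ribosome (-2.40), and Cox17, a copper chaperone for cytochrome c oxidase (-2.26). Of the 12, 11 were called at matched depth, and all 12 after both subtractions of free RNA.

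**Figure D2:**
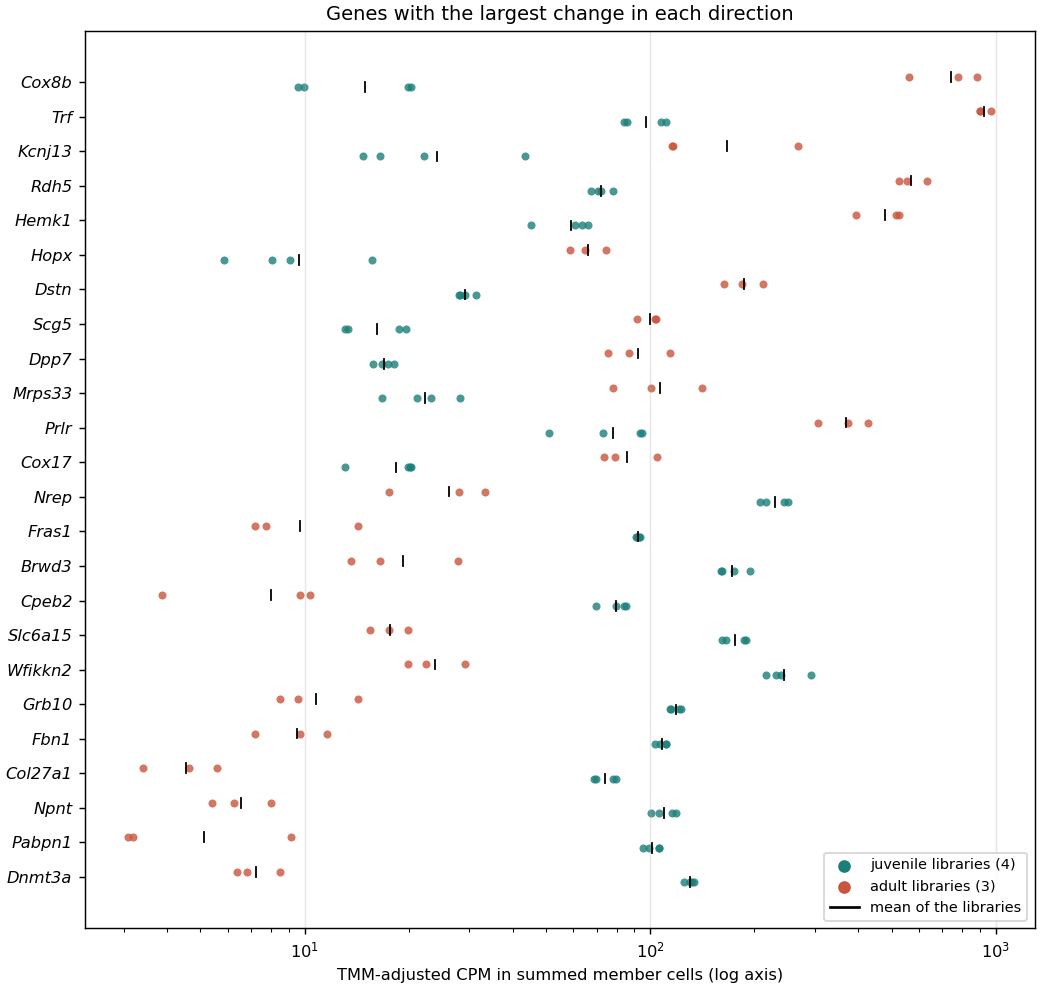
TMM-adjusted CPM (log axis) of the 12 genes with the largest change in each direction, with 1 point for each of the 4 juvenile and 3 adult libraries and a bar at the mean of the libraries. For each of the 24 genes the juvenile and adult points do not overlap, as the choice of genes required.

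Genes known to mark choroid plexus epithelium moved in both directions. Of 33 measured markers outside the limits, 11 were higher and 13 lower in juvenile cells (33.3% and 39.4%, against 26.8% and 23.4% of all genes), with a median of -0.23 against 0.03 for all genes. With every library kept separate 12 were higher and 17 lower, and after the subtraction with cells outside the Ttr and marker limits 9 and 17, with a median of -0.59. Matched depth gave 10 and 12. Htr2c, the serotonin receptor typical of this epithelium, lay at 769, 739, 686 and 729.9 CPM in the juvenile libraries and 199, 161 and 199 CPM in the adult libraries, with every juvenile value above every adult value (log2 fold change 1.95, SE 0.20, adjusted p = 1.52e-05, no-limit value 1.28). Trpm3, a steroid-sensitive cation channel, showed 580.2 ± 17.6 CPM in juvenile and 214 ± 8.18 CPM in adult samples (log2 fold change 1.44, SE 0.19, adjusted p = 7.73e-05). Otx2, the homeodomain factor needed to form the tissue, lay at 192, 211, 186 and 174 CPM in the juvenile libraries and 96.9, 89.5 and 134 CPM in the adult libraries (log2 fold change 0.87, SE 0.18, adjusted p = 0.00175), and its adjusted p was 0.0517 after the subtraction of free RNA with cells outside the Ttr and marker limits. Kl, which encodes the FGF23 co-receptor klotho, was lower, at 447 ± 23.9 CPM in juvenile and 845 ± 68.4 CPM in adult samples (log2 fold change -0.92, SE 0.19, adjusted p = 0.0019). F5, coagulation factor V, was lower as well (-1.24), and so was Ltc4s (-2.0). Sostdc1, a secreted antagonist of BMP and WNT, did not pass the test, at 1258 ± 39.8 CPM in juvenile and 1068 ± 15.5 CPM in adult samples (adjusted p = 0.325), but was called with every library kept separate (0.0375) and without TMM factors (0.0346).

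Ion and water transport genes were measured as the machinery of fluid secretion. Of 35 tested, 17 were higher and 6 lower in juvenile cells (48.6% and 17.1%, against 26.8% and 23.4% of all genes), with a median of 0.64. Matched depth gave 19 and 5. Aqp1, the apical water channel, lay at 579, 535, 563 and 567 CPM in the juvenile libraries and 156, 153 and 137 CPM in the adult libraries. The lowest juvenile value was far above the highest adult value (log2 fold change 1.91, SE 0.19, adjusted p = 1.52e-05). Slc12a2, the sodium, potassium and chloride cotransporter NKCC1, lay at 427, 414, 431 and 433 CPM in the juvenile libraries and 176, 169 and 169.9 CPM in the adult libraries (log2 fold change 1.30, SE 0.19, adjusted p = 0.000131). The sodium bicarbonate transporters Slc4a10 and Slc4a5 were higher by 1.30 (SE 0.21) and 1.12 (SE 0.18) on the log2 scale. The kinase Wnk4, which regulates such cotransporters, was higher by 2.63, and Atp2b4, a calcium pump of the plasma membrane, by 3.62 (2.44 without the limit on Cldn5 and Flt1), at 34.8 ± 1.3 CPM in juvenile and 2.8 ± 0.0702 CPM in adult samples.

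Other transport genes went the other way. Atp1b1, the beta subunit of the sodium pump in this tissue, was lower in juvenile cells, at 484 ± 49.6 CPM in juvenile and 823 ± 102 CPM in adult samples (log2 fold change -0.76, SE 0.20, adjusted p = 0.00691). Car2, the cytosolic carbonic anhydrase, lay at 274, 289.8, 343 and 323 CPM in the juvenile libraries and 884, 1105 and 1073 CPM in the adult libraries (log2 fold change -1.68, SE 0.21, adjusted p = 5.58e-05). The anion exchanger Slc4a2 did not pass the test (319 ± 14.2 CPM in juvenile and 271 ± 2.47 CPM in adult samples, adjusted p = 0.295), but was called with every library kept separate (0.0467) and without TMM factors (0.0311).

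Of 48 solute, vitamin and drug transporters tested, 16 were higher and 14 lower (33.3% and 29.2%, against 26.8% and 23.4% of all genes), with a median of 0.18, and 14 and 8 of 41 after the subtraction with cells outside the Ttr and marker limits. Matched depth gave 17 and 12. Slc23a2, the ascorbate transporter SVCT2, lay at 189, 171, 179.5 and 192 CPM in the juvenile libraries and 63.8, 41.6 and 54.1 CPM in the adult libraries (log2 fold change 1.72, SE 0.19, adjusted p = 3.26e-05, no-limit value 0.77). Slc35f1, a carrier family member whose substrate is not settled, was higher by 2.55 (1.43 without the limit on Cldn5 and Flt1). Slc16a8, a basolateral lactate transporter, was lower at 62.9 ± 5.79 CPM in juvenile and 140.0 ± 10.3 CPM in adult samples (log2 fold change -1.15, SE 0.18, adjusted p = 0.000214), as was the zinc importer Slc39a4 (-1.91). Of the 14 lower genes, 8 were under their level in other kept cells, among them the endothelial efflux pumps Abcb1a and Abcg2.

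Of 29 junction and polarity genes tested, 8 were higher and 4 lower (27.6% and 13.8%, against 26.8% and 23.4% of all genes), with a median of 0.18, and 12 and 3 without TMM factors. Matched depth gave 10 and 5. Cldn1, a sealing claudin, lay at 145, 129, 139.7 and 146 CPM in the juvenile libraries and 29.6, 12.8 and 22.4 CPM in the adult libraries, (log2 fold change 2.60, SE 0.23, adjusted p = 7.40e-06, no-limit value 1.59). Cldn2, the claudin that forms pores for sodium and water, lay at 243, 260.5, 246 and 239 CPM in the juvenile libraries and 100.3, 95.9 and 99.6 CPM in the adult libraries (log2 fold change 1.32, SE 0.18, adjusted p = 9.25e-05). Cdh3, P-cadherin, showed 65.7 ± 3.97 CPM in juvenile and 23.3 ± 2.45 CPM in adult samples (log2 fold change 1.5, SE 0.19, adjusted p = 7.11e-05). All 4 lower genes were under their level in other kept cells. They were Esam (-2.38) and Jam2 (-1.89), adhesion molecules of endothelium, Lsr (-1.53), a protein of tricellular junctions, and the claudin Cldn11 (-1.06). Cldn11 was not called without Adult 2 (-0.73, adjusted p = 0.0725). Cldn11 was also not called by DESeq2 (-1.08, 0.0961), without TMM factors (-0.81, 0.0671) or without the limit on Cldn5 and Flt1 (-1.21, 0.0740). Lsr was reversed after both subtractions of free RNA, which left 2, 0 and 0 UMIs of it in Adult 1 to 3.

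**Figure D3:**
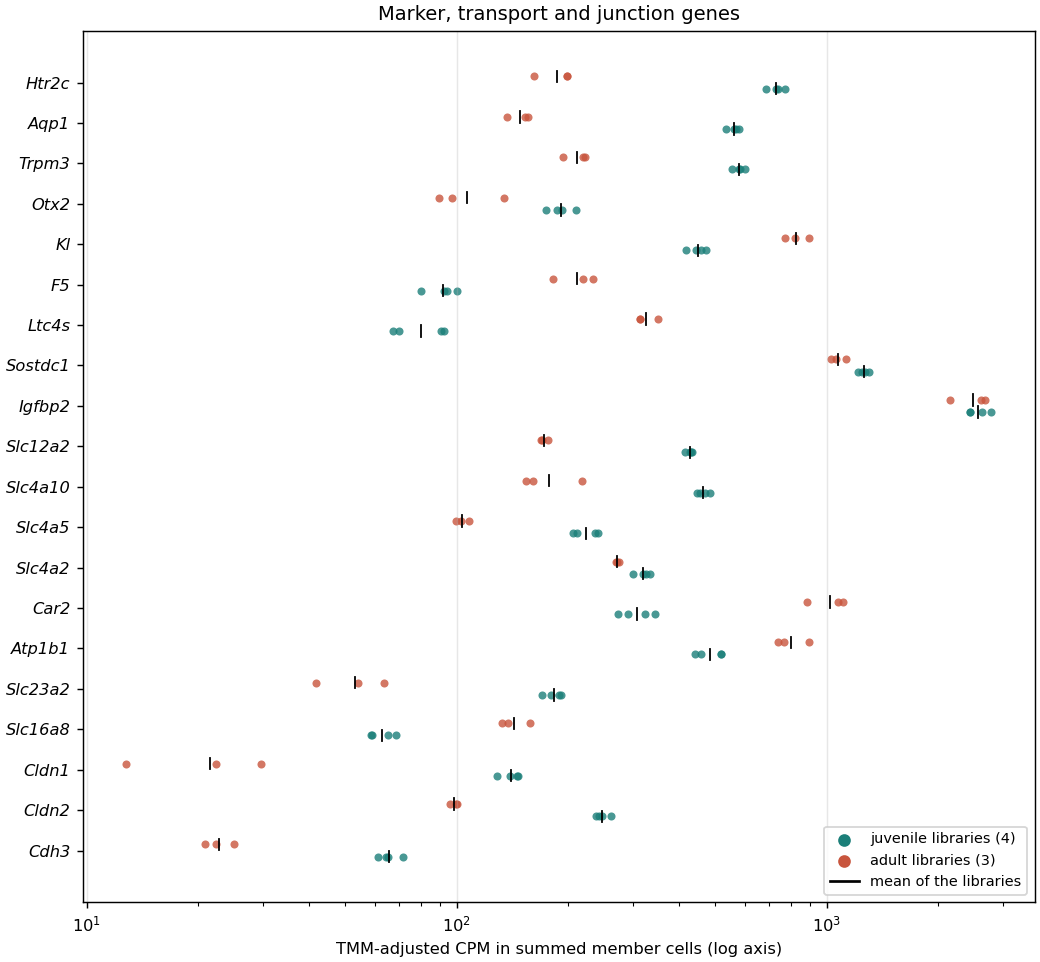
TMM-adjusted CPM (log axis) of marker, transport and junction genes, with 1 point for each of the 4 juvenile and 3 adult libraries and a bar at the mean of the libraries. Aqp1, Htr2c, Slc12a2, Cldn1 and Cldn2 lie higher in every juvenile library, Kl, Car2, Atp1b1 and Slc16a8 lie higher in every adult library, and Igfbp2 overlaps.

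Growth factor and imprinted genes had a median of 1.45 over 28 tested, with 16 higher, of which 7 were under their level in other kept cells, and 4 lower (57.1% and 14.3%, against 26.8% and 23.4% of all genes). Matched depth gave 16 and 5. Igf2, the growth factor that this epithelium secretes into the fluid, lay at 660.1, 714, 635 and 638 CPM in the juvenile libraries and 271, 176 and 151 CPM in the adult libraries (log2 fold change 1.61, SE 0.24, adjusted p = 0.000222). Adult 1 was the highest adult library and still well below every juvenile library. Plagl1, an imprinted zinc finger factor, lay at 67, 68, 65.6 and 77.5 CPM in the juvenile libraries and 12.5, 6.4 and 4.63 CPM in the adult libraries (log2 fold change 3.03, SE 0.28, adjusted p = 1.19e-05, no-limit value 2.23). Its adjusted p was 0.0570 without the limit on Cldn5 and Flt1. Peg3, another imprinted zinc finger gene, lay at 132 ± 6.07 CPM in juvenile and 33.1 ± 3.99 CPM in adult samples (log2 fold change 2.01, SE 0.19, adjusted p = 1.00e-05, no-limit value 1.11). Igfbp2, the main IGF binding protein here, did not pass the test, at 2573 ± 197 CPM in juvenile and 2403 ± 343 CPM in adult samples (adjusted p = 0.711). The 4 lower genes were Cdkn1c, an imprinted cell cycle inhibitor (-1.27), the splicing gene Snrpn (-1.15), Gnas, the stimulatory G protein (-1.56), and Igfbp7, an endothelial matrix protein (-1.86), the last 2 under their level in other kept cells. Gnas was not called by DESeq2 (-1.52, adjusted p = 0.0929).

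Of 44 other secreted factors tested, 18 were higher and 12 lower (40.9% and 27.3%, against 26.8% and 23.4% of all genes). Matched depth gave 18 and 10 of 46. In the main comparison 8 of the higher and 10 of the lower were under other kept cells. Vegfa, the endothelial growth factor, lay at 72.6, 90, 87.6 and 89.9 CPM in the juvenile libraries and 21.1, 12 and 12.4 CPM in the adult libraries (log2 fold change 2.40, SE 0.24, adjusted p = 1.37e-05, no-limit value 1.46). Sfrp1, a secreted WNT inhibitor, showed 193 ± 14 CPM in juvenile and 60 ± 2.13 CPM in adult samples (log2 fold change 1.69, SE 0.18, adjusted p = 2.35e-05). Slit2, a guidance cue carried in the fluid, lay at 39.2 ± 6.82 CPM in juvenile and 9.41 ± 4.42 CPM in adult samples (log2 fold change 2.15, SE 0.29, adjusted p = 0.000115, no-limit value 1.52). Clu, the chaperone clusterin, was lower at 1161 ± 42.4 CPM in juvenile and 3727 ± 370.0 CPM in adult samples (log2 fold change -1.68, SE 0.21, adjusted p = 5.97e-05). Ptgds, prostaglandin D synthase, was lower at 746 ± 8.5 CPM in juvenile and 2266 ± 155 CPM in adult samples (log2 fold change -1.60, SE 0.20, adjusted p = 6.28e-05).

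Transcription factors of epithelial and regional identity were mostly higher, with 24 of 40 tested higher, 4 lower (60.0% and 10.0%, against 26.8% and 23.4% of all genes) and a median of 0.85. Matched depth gave 24 and 7 of 44. Of the 24, 17 were epithelial by the definition above. Gmnc, the regulator that starts multiciliated cell differentiation, lay at 44.8, 39.7, 35.4 and 34.8 CPM in the juvenile libraries and 6.27, 2.4 and 1.54 CPM in the adult libraries (log2 fold change 3.34, SE 0.36, adjusted p = 2.99e-05, no-limit value 1.81). Without that limit its adjusted p was 0.0696. Zic4, a zinc finger factor of the dorsal midline, showed 52 ± 3.14 CPM in juvenile and 7.42 ± 1.6 CPM in adult samples (log2 fold change 2.85, SE 0.24, adjusted p = 5.84e-06, no-limit value 2.21). Rfx3, a regulator of ciliary genes, lay at 148 ± 10.5 CPM in juvenile and 27.6 ± 1.26 CPM in adult samples (log2 fold change 2.42, SE 0.19, adjusted p = 3.08e-06). Foxj1, the regulator of motile cilia, was higher by 1.65 (95.2 ± 7.94 CPM in juvenile and 30.7 ± 3.37 CPM in adult samples). It is also counted below among the markers of ciliated ependymal cells, of which 5 of 7 tested were higher. The 4 lower genes were Emx1, a cortical homeobox gene (-2.76, 1.69 ± 0.146 CPM in juvenile and 11.3 ± 0.678 CPM in adult samples), and 3 under their level in other kept cells, namely Klf2 (-2.21) and Ets1 (-1.91, and -1.19 without the limit on Cldn5 and Flt1), both known from endothelium, and Klf4 (-0.97). Klf4 was not called by DESeq2 (-0.96, adjusted p = 0.0927) or without that limit (-1.31, 0.0546).

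Ciliary genes were called in both directions, with 8 higher and 6 lower of 32 tested (25% and 18.8%, against 26.8% and 23.4% of all genes) and a median of 0.02. Without TMM factors 12 were higher and 3 lower, and after the subtraction with cells outside the Ttr and marker limits 4 and 11 of 29, so the balance depended on the processing. Without Adult 1 the median was 0.06. Matched depth gave 7 and 9 of 33. The radial spoke genes Rsph1 and Rsph9 were lower in juvenile cells, Rsph1 at 71.3 ± 7.61 CPM in juvenile and 209.8 ± 34.9 CPM in adult samples (log2 fold change -1.55, SE 0.19, adjusted p = 5.12e-05) and Rsph9 with a log2 fold change of -1.54. Dnah9, an outer arm dynein, was higher at 26.6 ± 0.277 CPM in juvenile and 5.73 ± 2.46 CPM in adult samples (log2 fold change 2.15, SE 0.29, adjusted p = 8.46e-05, no-limit value 1.34). The ependymal cell markers Ccdc153, Fam183b and Tmem212 were among the higher genes.

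Matrix genes were higher in 19 of 32 cases and lower in 2 (59.4% and 6.25%, against 26.8% and 23.4% of all genes), with a median of 0.91. Matched depth gave 18 and 3. Of the higher genes 10 were epithelial. Beside Fbn1, Col8a1, a network-forming collagen, lay at 344 ± 48.4 CPM in juvenile and 109 ± 22.7 CPM in adult samples (log2 fold change 1.67, SE 0.21, adjusted p = 6.11e-05, no-limit value 0.99). Hspg2, the basement membrane proteoglycan perlecan, lay at 113, 108, 88.5 and 92.7 CPM in the juvenile libraries and 21.1, 18.4 and 25.5 CPM in the adult libraries (log2 fold change 2.21, SE 0.20, adjusted p = 8.47e-06). Both lower genes, Spock2 (-2.08) and Fn1, fibronectin (-1.27, and -0.53 with an adjusted p of 0.128 without the limit on Cldn5 and Flt1), were under their level in other kept cells. The mural and fibroblast-like marker list, whose cells make much of this matrix, had 5 of 13 members higher and 3 lower with a median of 0.83 (1.02 without Adult 1, and 6 of 14 members higher at matched depth). It summed to 221 to 273 CPM in juvenile and 267 to 471 CPM in adult cells without TMM factors, so the median and the sum ran opposite ways, and its part in the result was not tested.

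Clock genes were higher in 12 of 19 cases and lower in none (edgeR's quasi-likelihood test, and 0 lower at an unadjusted p of 0.05), with a median of 0.79, against 26.8% of all genes called higher. DESeq2 called 8 of 20 higher and 0 lower. At matched depth 15 were higher and 1 lower, and without Juvenile 3 and 4 or TMM factors the direction of the 4 genes named here was the same. Per3, a period gene, lay at 73.6, 66.9, 82.1 and 74.8 CPM in the juvenile libraries and 11.4, 11.2 and 12.4 CPM in the adult libraries (log2 fold change 2.69, SE 0.21, adjusted p = 3.08e-06). Per1, its paralogue that responds to light and hormones, lay at 37.8, 33.5, 52.5 and 49.1 CPM in the juvenile libraries and 15.4, 12.8 and 14.7 CPM in the adult libraries (log2 fold change 1.61, SE 0.24, adjusted p = 0.000204), and Juvenile 3 and 4 were above Juvenile 1 and 2. Tef, a PAR bZIP output factor of the clock, showed 46.5 ± 1.47 CPM in juvenile and 8.31 ± 0.47 CPM in adult samples (log2 fold change 2.48, SE 0.23, adjusted p = 9.62e-06, no-limit value 1.68). The repressor Cry2 lay at 21.5 ± 1.43 CPM in juvenile and 7.15 ± 0.443 CPM in adult samples (log2 fold change 1.59, SE 0.26, adjusted p = 0.000334). The labels give no hour of tissue collection, so age and hour of collection cannot be told apart.

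The clock proteins CLOCK and BMAL1 bind the E-box CACGTG, so the 250 bases upstream of the annotated starts of these genes were searched for it on both strands. The E-box was held by 6.02% of the 32851 promoters in the RefSeq table (GRCm38.p6). Of the 12 clock genes called higher, 9 had a promoter there, and 2 of these genes held it in 3 of 13 promoters, while among the clock genes not called 2 of 6 with a promoter held it. The 3 promoters of called genes are shown 5′ to 3′ on the gene's strand up to the base before the start, with the E-box in capitals, to give the sequence context of Per1 (chr11:69098699-69098948, plus strand) and of both Tef starts (chr15:81802423-81802672 and chr15:81811164-81811413, plus strand). A match is a description of letters, not of binding.
Per1: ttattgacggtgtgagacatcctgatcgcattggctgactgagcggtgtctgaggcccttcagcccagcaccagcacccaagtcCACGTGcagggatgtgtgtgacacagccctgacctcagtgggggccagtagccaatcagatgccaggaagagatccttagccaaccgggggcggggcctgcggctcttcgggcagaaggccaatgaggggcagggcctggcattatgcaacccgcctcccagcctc
Tef, upstream start: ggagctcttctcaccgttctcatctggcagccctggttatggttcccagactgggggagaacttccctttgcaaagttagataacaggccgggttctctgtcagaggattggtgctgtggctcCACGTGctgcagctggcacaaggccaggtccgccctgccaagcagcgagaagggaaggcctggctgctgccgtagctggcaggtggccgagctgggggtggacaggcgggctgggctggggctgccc
Tef, downstream start: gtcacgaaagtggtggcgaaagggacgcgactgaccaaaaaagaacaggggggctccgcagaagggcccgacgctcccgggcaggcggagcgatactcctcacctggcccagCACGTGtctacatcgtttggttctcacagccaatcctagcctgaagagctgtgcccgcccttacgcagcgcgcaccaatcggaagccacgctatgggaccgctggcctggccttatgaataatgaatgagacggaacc

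Genes of oxidative phosphorylation encoded in the nucleus were mostly lower in juvenile cells. Of 65 tested, 40 were lower and 1, Atp5g3, higher, with a median of -0.67, against 23.4% of all genes called lower. At matched depth 48 were lower and 0 higher (1 at an unadjusted p of 0.05, edgeR), DESeq2 on the main sums called 43 lower and 1 higher, and without TMM factors 26 were lower and 1 higher. Of the 40, 39 were epithelial. Cycs, which encodes cytochrome c, lay at 173, 195, 142 and 123 CPM in the juvenile libraries and 442, 462 and 479 CPM in the adult libraries (log2 fold change -1.53, SE 0.21, adjusted p = 9.45e-05). Ndufs5, a complex I subunit, lay at 98.3, 125, 57 and 40.8 CPM in the juvenile libraries and 324, 277 and 319.7 CPM in the adult libraries (log2 fold change -1.98, SE 0.38, adjusted p = 0.00696), and without Adult 1 its log2 fold change was -1.93. Atp5l, a subunit of ATP synthase, showed 56.1 ± 21.2 CPM in juvenile and 233 ± 69 CPM in adult samples (log2 fold change -2.07, SE 0.31, adjusted p = 0.00112). Atp5g3, a ring subunit of the same enzyme, was higher at 860.4 ± 10.8 CPM in juvenile and 603 ± 86 CPM in adult samples (adjusted p = 0.0451). It was no longer called at matched depth (log2 fold change 0.46, adjusted p = 0.0549) or without the limit on Cldn5 and Flt1 (0.43, 0.102). The call was also lost without Juvenile 4 (0.49, 0.0503) and after the planned (0.25, 0.289) and the other subtraction of free RNA (0.19, 0.437). Without Adult 1 its log2 fold change was 0.37.

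The mitochondrial genome moved differently in sum. Its genes made up 4.15%, 4.29%, 4.52% and 4.84% of UMIs in Juvenile 1 to 4 and 2.73%, 2.64% and 2.87% in Adult 1 to 3, without overlap (exact permutation test, two-sided, p = 0.0286, the smallest possible, adjusted over 4 tests 0.0381). With near-identical libraries averaged the p was 0.333, the smallest then possible. By gene, 4 of 15 were higher and 7 lower (26.7% and 46.7%, against 26.8% and 23.4% of all genes) with a median of -0.40, the opposite sign to the share. With every library kept separate 6 were higher and 6 lower with a median of 0.22, and at matched depth 4 and 7. Ribosomal protein genes made up 6.93% to 7.84% of UMIs in juvenile and 4.82% to 6.04% in adult libraries (exact permutation test, p = 0.0286, adjusted 0.0381, and 0.333 with near-identical libraries averaged). Of 85 of them tested, 9 were higher and 7 lower (10.6% and 8.24%, under the shares over all genes), with 35 and 4 without TMM factors. Matched depth gave 7 and 8.

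Of 11 retinoid genes tested, 6 were higher and 4 lower (54.5% and 36.4%, against 26.8% and 23.4% of all genes), with a median of 0.68 and the same counts at matched depth. After the subtraction with cells outside the Ttr and marker limits 3 of 9 were higher and 4 lower. Beside Rdh5, the lower genes included Stra6, the retinol uptake receptor (34.9 ± 6.22 CPM in juvenile and 67.2 ± 10.5 CPM in adult samples, log2 fold change -0.93, SE 0.20, adjusted p = 0.00181), and Dhrs3, a retinal reductase (-0.99). Rdh10, which oxidizes retinol, was higher (log2 fold change 0.68, SE 0.18, adjusted p = 0.00804), but its adjusted p was 0.161 after the subtraction with cells outside the Ttr and marker limits. Of 22 iron and copper genes tested, 6 were higher and 10 lower (27.3% and 45.5%, against 26.8% and 23.4% of all genes), with a median of -0.13. Without TMM factors 8 were higher and 7 lower, with a median of 0.12, and after the subtraction with cells outside the Ttr and marker limits 3 and 5 of 19. Of the 10 lower genes, 6 were under their level in other kept cells. Matched depth gave 8 and 10 of 23. Atp7a, the copper exporter, lay at 49.9, 49.7, 74.6 and 76.8 CPM in the juvenile libraries and 14.2, 12 and 10 CPM in the adult libraries (log2 fold change 2.36, SE 0.27, adjusted p = 4.36e-05, no-limit value 1.27). Steap2, a metalloreductase, lay at 220.4 ± 6.92 CPM in juvenile and 77.5 ± 12.9 CPM in adult samples (log2 fold change 1.52, SE 0.19, adjusted p = 5.91e-05, no-limit value 0.61). Beside Trf, the lower genes included Fth1, ferritin heavy chain (2654 ± 517 CPM in juvenile and 4204 ± 465 CPM in adult samples, log2 fold change -0.66, SE 0.22, adjusted p = 0.0257, and 0.0964 without TMM factors), and Mt3, a metallothionein (-0.88).

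Of 31 sterol and fatty acid genes tested, 6 were higher and 9 lower (19.4% and 29.0%, against 26.8% and 23.4% of all genes), with a median of -0.08, and 13 and 8 without TMM factors. Matched depth gave 11 and 10 of 32. The fatty acid enzymes Elovl6 and Scd2 were higher, Elovl6 at 51.7 ± 9.66 CPM in juvenile and 11.2 ± 1.92 CPM in adult samples (log2 fold change 2.25, SE 0.24, adjusted p = 2.49e-05, no-limit value 1.48) and Scd2 by 1.35, which was not called without the limit on Cldn5 and Flt1 (log2 fold change 0.52, adjusted p = 0.0641). Fdps and Nsdhl, enzymes of sterol synthesis, were lower, with log2 fold changes of -1.54 and -1.36.

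Of 19 hormone and transmitter receptors tested, 11 were higher and 3 lower (57.9% and 15.8%, against 26.8% and 23.4% of all genes), with a median of 0.75. Matched depth gave 9 and 2 of 20. Lepr, the leptin receptor, lay at 85.7, 92.1, 69.9 and 73 CPM in the juvenile libraries and 30.2, 29.6 and 23.9 CPM in the adult libraries (log2 fold change 1.49, SE 0.20, adjusted p = 8.62e-05). Gabbr1, a GABA B receptor subunit, showed 55.8 ± 2.02 CPM in juvenile and 21.9 ± 2.08 CPM in adult samples (log2 fold change 1.36, SE 0.20, adjusted p = 0.000138). Beside Prlr the lower genes included Ramp2 (-1.73), a receptor partner known from endothelium, under its level in other kept cells.

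**Figure D4:**
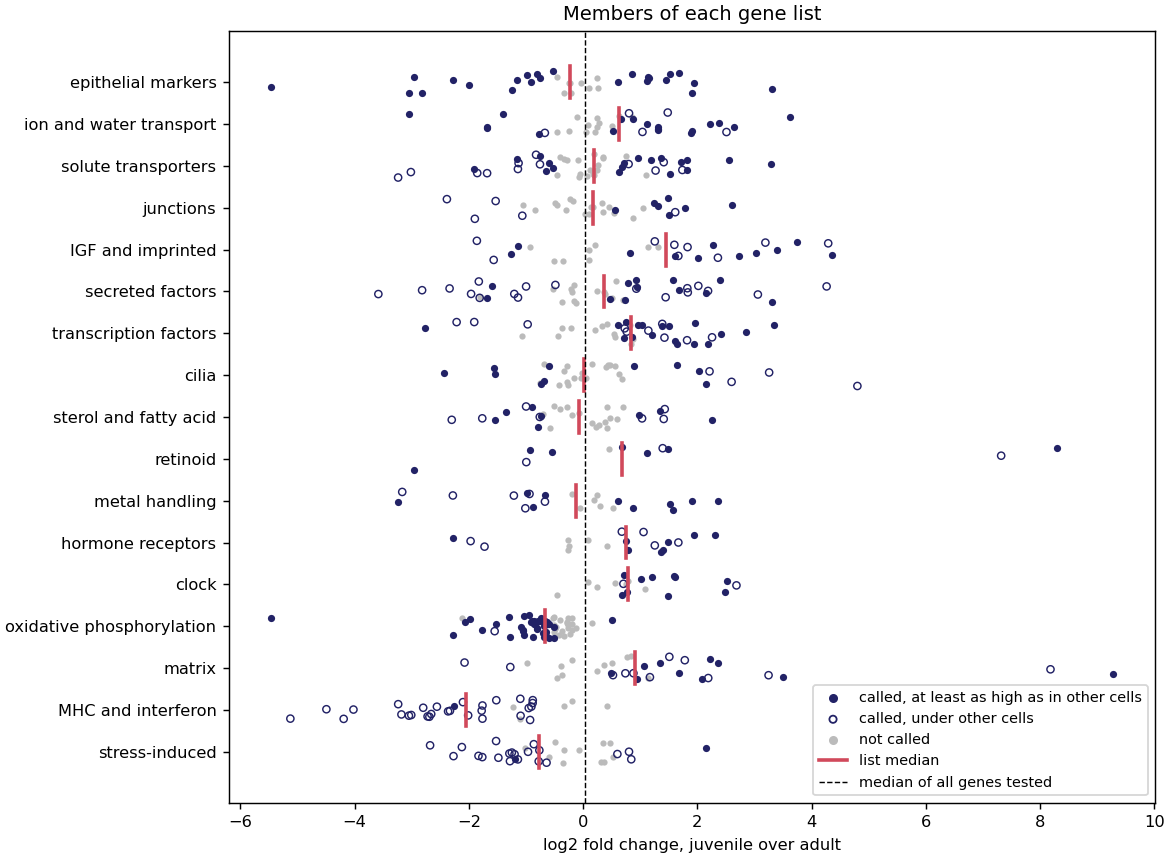
Log2 fold change, juvenile over adult, of the tested members of each gene list, with filled points for called genes at least as high as in other kept cells in the higher age, open points for called genes under other cells, grey points for genes not called, a red bar at the list's median and a dashed line at the median of all genes. Medians of the lists plotted run from -2.06 for MHC and interferon genes to 1.45 for IGF and imprinted genes, and nearly all called MHC and interferon genes are open points.

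Cell cycle genes were measured as signs of proliferation. Of 28 cell cycle genes tested, 10 were higher and 3 lower (35.7% and 10.7%, against 26.8% and 23.4% of all genes), with a median of 0.52, and 6 and 3 of 21 with a median of -0.01 when every library was kept separate. Matched depth gave 12 and 2 of 33. Of the higher genes in the main comparison, 9 of the 10 were under other kept cells. The exception was Ccnd2, cyclin D2 (152 ± 22.2 CPM in juvenile and 93.5 ± 1.67 CPM in adult samples, log2 fold change 0.71, SE 0.18, adjusted p = 0.00619). The lower genes were the histone H2afz, the inhibitor Cdkn1b and Cdkn1c, the first 2 under their level in other kept cells. The call of Cdkn1b was lost by DESeq2 (log2 fold change -0.58, adjusted p = 0.167), without TMM factors (-0.36, 0.186) and at matched depth (-0.31, 0.206). It was also lost after the planned (-0.45, 0.222) and the other subtraction of free RNA (-0.49, 0.159) and without the limit on Cldn5 and Flt1 (-0.48, 0.0504). Without Adult 1 its log2 fold change was -0.44. When each cell was thinned to 1500 UMIs, a separate set of cell cycle genes was counted, such as Mki67, Top2a, Cdk1 and Plk1. This set left out Ccnd2, H2afz, Cdkn1b and Cdkn1c. At least 2 UMIs of it were found in 6 of 178, 1 of 165, 9 of 778 and 6 of 808 juvenile cells (3.37%, 0.606%, 1.16% and 0.743%). In adult libraries at least 2 UMIs of this set were found in 0 of 446, 0 of 395 and 0 of 359 cells. This allows shares of cells with that many UMIs of up to 0.673%, 0.759% and 0.836% (3 counts of the cells thinned). The exact 95% binomial upper bounds were 0.824%, 0.930% and 1.02%. Endothelial cells of the same libraries gave 5.03% to 10.8% in juvenile and 0.232% to 0.390% in adult. Thinning left out 1 to 4 cells in each juvenile and 76 to 86 in each adult library, and the limits cover counting error only.

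Thinned shares of cells with a UMI moved as the summed counts did. Aqp1 was found in 59.6%, 57.0%, 53.7% and 54.0% of juvenile and 20.9%, 19.2% and 15.6% of adult cells, and in 0.406% to 4.83% of endothelial cells. Unthinned, the shares were 84.2% to 97.0% and 28.7% to 35.1%. Cldn1 was found in 24.2%, 21.2%, 16.1% and 18.8% of juvenile and 2.02%, 1.77% and 2.51% of adult cells, with at most 0.502% in endothelial cells and unthinned shares of 58.7% to 73.1% and 3.12% to 8.43%. Cox8b was found in 0 to 2.35% of juvenile and 42.4%, 45.8% and 49.9% of adult cells, with 3.13% to 9.06% in adult endothelial cells and unthinned shares of 7.19% to 9.63% and 57.0% to 60.1%. Trf was found in 15.2%, 15.8%, 11.7% and 10.8% of juvenile cells and in 18.7%, 21.0%, 9.35% and 8.0% of endothelial cells of Juvenile 1 to 4, so the epithelial share was under the endothelial one in Juvenile 1 and 2 and above it in Juvenile 3 and 4. In adult libraries Trf was in 50.1% to 52.7% of epithelial cells against 5.80% to 11.2% of endothelial cells. Unthinned, Trf was in 36.9% to 53.9% of juvenile and 64.2% to 69.2% of adult cells. Median depth before thinning was 4992 to 6442.5 UMIs in juvenile and 2859.5 to 3314.5 in adult endothelial cells.

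Several lists held genes that lay under their level in other kept cells. Of 34 MHC class I and interferon-response genes tested, 29 were lower in juvenile cells, against 23.4% of all genes, and none higher (edgeR's quasi-likelihood test, and 0 higher at an unadjusted p of 0.05 and 0 by DESeq2), with a median of -2.06, and 31 of 35 were lower at matched depth. But 28 of the 29 were under their level in other kept cells. B2m, the MHC class I light chain, lay at 169.8, 213, 194 and 198 CPM in the juvenile libraries and 716, 576 and 620.1 CPM in the adult libraries (log2 fold change -1.76, SE 0.20, adjusted p = 2.95e-05), and its adjusted p was 0.825 after the subtraction with cells outside the Ttr and marker limits. After that subtraction 17 of the list could be tested, with 3 higher and 2 lower. H2-D1, an MHC class I heavy chain, was lower (-2.56) and reversed after both subtractions, with 0 UMIs left in the adult libraries. The 1 epithelial member was Ifi27, an interferon-induced mitochondrial protein, at 169, 165, 221 and 231 CPM in the juvenile libraries and 844, 992 and 1084 CPM in the adult libraries (log2 fold change -2.26, SE 0.22, adjusted p = 1.37e-05), and it remained lower after subtraction (-2.58). Endothelial markers outside the limits were lower in 11 of 13 cases (10 of 13 at matched depth), and their sum, in CPM without TMM factors as for all lists, ran from 3617 to 4203 CPM in juvenile and from 7703 to 7792 CPM in adult cells. Microglia and macrophage markers were lower in 9 of 13 (7 of 14 at matched depth), with sums of 583 to 694 and 993 to 2321 CPM, the highest in Adult 1. No marker of these lists was at 0 in all libraries, and the part of such RNA in results on genes under their level in other cells was not tested.

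The other marker lists also shifted in part. Against 26.8% of all genes higher and 23.4% lower, astrocyte markers were lower in 4 of 10 (median -0.82, and 1.59 without Adult 1), with sums of 298 to 332 CPM in juvenile and 339 to 612 CPM in adult cells, neuron and oligodendrocyte markers lower in 6 of 12 and higher in 2 with 123 to 172 and 244 to 262 CPM, and blood markers lower in 3 of 7 with 121 to 1675 and 461 to 3130 CPM. Ciliated ependymal markers were higher in 5 of 7 and lower in 1, with sums of 371 to 500 CPM in juvenile and 259 to 296 CPM in adult cells. After the subtraction of free RNA 4 could be tested, with 1 higher and 1 lower. The 5 were Ccdc153 (6.74 ± 2.64 CPM in juvenile and 0.285 ± 0.403 CPM in adult samples), Fam183b, Tmem212, Foxj1 and Mia, and the lower gene was Dynlrb2 (97.9 ± 0.97 CPM in juvenile and 163 ± 58.6 CPM in adult samples).

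Immediate early and heat shock genes, which dissociation can induce, were lower in 18 of 33 cases and higher in 4, against 23.4% and 26.8% of all genes, with a median of -0.78, and 17 of the 18 were under other kept cells. At matched depth 20 of 34 were lower and 4 higher. Hspa1a, a heat shock protein, lay at 269, 299.7, 126 and 126 CPM in the juvenile libraries and 781, 616 and 723 CPM in the adult libraries (log2 fold change -1.83, SE 0.38, adjusted p = 0.00732), and without Adult 1 its log2 fold change was -1.73. Hspa5, the chaperone of the endoplasmic reticulum, was the epithelial one, at 476 ± 14.3 CPM in juvenile and 1092 ± 303 CPM in adult samples (log2 fold change -1.20, SE 0.22, adjusted p = 0.000854). The 4 higher genes were Nr4a2 (2.15), Cebpb (0.84), Egr1 (0.80) and Jund (0.60), transcription factors of the early response. All but Nr4a2 were under their level in other cells, none of the 4 was called without the limit on Cldn5 and Flt1 (adjusted p = 0.0973 to 0.734), Jund reversed there, and both Cebpb and Jund reversed when the Ttr limit was lowered to 5%. After the subtraction of free RNA 13 were higher and 4 lower, so the list's balance depended on it.

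The changes were set against those of endothelial cells, the other barrier cell of these libraries, in the same samples with the sample as a block. Of 13537 genes tested, 5133 (37.9%) changed with age by different amounts in the epithelium and in 6832 endothelial cells. Of the 12 named genes higher in juvenile epithelium, 11 differed in this way, and of the 12 lower genes 6, counts that the choice of genes by their change in the epithelium bears on. Nrep, Npnt and Grb10 were also called higher in juvenile endothelial cells (edgeR, log2 fold change 2.06, 1.83 and 0.74, adjusted p = 0.000329, 0.0305 and 0.0149). The rest of the 12 higher genes were not called there. Dnmt3a lay at 43.3 and 37.3 CPM in juvenile and adult endothelial cells, and its change was 3.90 larger on the log2 scale in the epithelium. Hopx lay at 6.6 and 1.31 CPM there, the reverse of its direction in the epithelium, and differed by -5.06. Trf differed by -3.88. Fth1 fell from 12816 to 2311 CPM with age in endothelial cells and rose with age in the epithelium, with a difference of -3.16. Wfikkn2 and the lower genes Cox8b, Kcnj13, Rdh5, Hemk1, Scg5 and Prlr did not pass this test. Cox8b, Rdh5, Hemk1 and Scg5 were also called lower in juvenile endothelial cells (edgeR, log2 fold change -7.16, -3.98, -3.48 and -2.57, adjusted p = 0.00187, 0.0303, 0.0178 and 0.0378). They lay at 0.22, 2.36, 3.35 and 1.87 CPM in juvenile and 26.0, 23.6, 25.9 and 7.54 CPM in adult endothelial cells. Wfikkn2, Kcnj13 and Prlr were not called there. The part of free epithelial RNA in these values was not tested.

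The plot of log2 fold changes at matched depth sets each gene shown here against its value in cells of 5000 to 15000 UMIs.

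**Figure D5:**
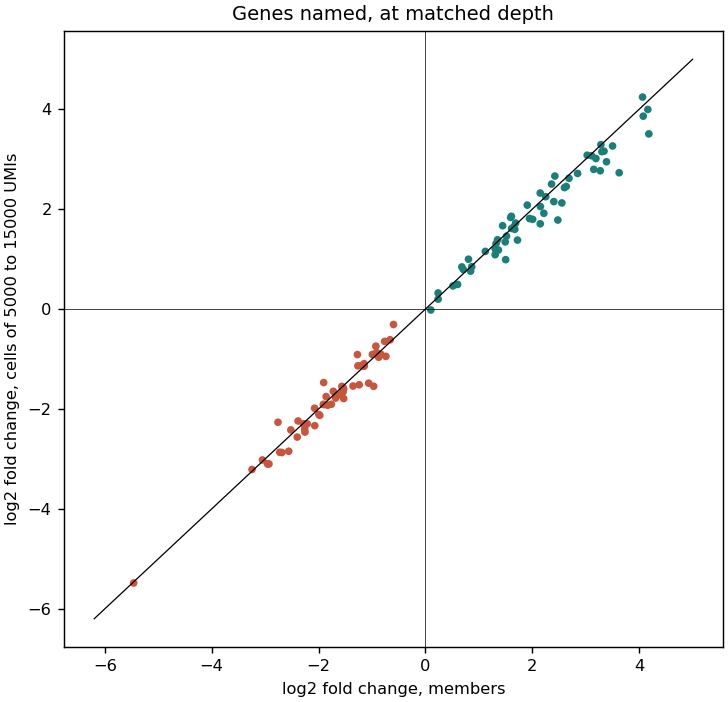
Log2 fold change, juvenile over adult, of the genes given in the text (1 point each) in the selected cells (x axis) and in cells of 5000 to 15000 UMIs without the limit on Cldn5 and Flt1 (y axis), with the line of equal values, in green for genes higher and red for genes lower in juvenile cells. Points lie along the line, from Cox8b at -5.46 and -5.48 to Dnmt3a at 4.18 and 3.51.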

How the data were processed

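Single-cell suspensions were sequenced with the 10x Chromium 3′ v2 assay, and the authors deposited 1 table of raw UMI counts per library (26921 genes, no normalization). Per the labels' processing notes, bcl2fastq 2.19.1.403, UMI-tools 0.5.3, STAR 2.5.3a and Subread featureCounts 1.6.1 with genome build mm10 were used, and the methods name later versions of the last 3. Of 54646 barcodes, 50625 with 501 to 5999 genes and under 25% mitochondrial UMIs were kept. UMIs of selected cells were summed per library, and near-identical libraries were summed to 1 sample. Sums were tested with edgeR 4.0.16 in R 4.3.3 (TMM, filterByExpr, robust quasi-likelihood test, Benjamini-Hochberg at 0.05). CPM values use TMM-adjusted library sizes, and a mean ± SD is over 2 samples per age. Single values per library were compared by exact permutation tests. Doublets were not removed in the main comparison, and leaving out those that Scrublet (scanpy 1.11.5, Python 3.11.15) called was an alternative. DESeq2 1.42.0 was another.

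The cells and gene lists were chosen with earlier results of these data known. Named genes were, in each direction, the 12 of largest log2 fold change among those called also with libraries kept separate, with at least 50 CPM, no overlap between libraries and a level at least that of other kept cells, leaving out genes of the limits, mitochondrial and predicted genes and ribosomal pseudogenes. From each list up to 4 called members of largest change in each direction could be named. Those printed had at least 20 CPM and the level of other cells, a condition set after values were seen, with exceptions. In some counts of 5 or fewer, members were named whatever their level. Some members of larger counts were too, such as B2m, H2-D1, Hspa1a, Abcb1a and Abcg2. Endothelial cells had at least 5 UMIs of Cldn5 and Flt1, under 10% Ttr and fewer than 3 UMIs of C1qa, C1qb and C1qc. Promoters came from a RefSeq table of GRCm38.p6. The test was checked on simulated counts. Aged and encephalomyelitis libraries entered only the alternative with all 11 libraries. Some genes of the lists count in the totals but are not reported here by name.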

Additional observations from a re-analysis of the deposited data

Results flagged for a closer look

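For 70 of the 114 genes given above, against 37.9% of all genes tested, the change between ages differed between choroid plexus epithelium and endothelial cells of the same samples (edgeR's quasi-likelihood test of the interaction, sample as a block, adjusted p under 0.05). Most of these genes were given for their change in the epithelium, which bears on that count. Some of them lay under their level in other kept cells, among them Esam, Jam2, Lsr, Ramp2, Klf2, Ets1, Igfbp7, Fn1, Spock2, H2afz and H2-D1. The interaction was not run on counts after subtraction of free RNA, and the part of such RNA in these values was not tested. Values are the log2 change, juvenile over adult, in the epithelium minus that in endothelial cells, so that a positive value stands for a gene that was more juvenile-biased in the epithelium. Ptgds and Clu were lower in juvenile epithelium, and their positive values stand for a stronger change in the same direction in endothelial cells.

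Of the transport and junction genes, Atp2b4 differed by 3.73, Wnk4 by 3.61, Slc4a5 by 2.51, Slc6a15 by 1.84, Slc12a2 by 1.72, Slc23a2 by 1.44, Slc4a2 by 1.21, Cldn1 by 2.75 and Cdh3 by 1.56. Car2 differed by -1.39, Esam by -2.50, Jam2 by -1.0 and Lsr by -0.63. Slc6a15 lay at 2.36 and 0.725 CPM in juvenile and adult endothelial cells, and Atp2b4 at 8.36 and 11.9 CPM.

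Of the matrix, growth and secreted genes, Col27a1 differed by 3.10, Fras1 by 3.06, Npnt by 2.29, Fbn1 by 1.95, Col8a1 by 1.71, Hspg2 by 1.44, Vegfa by 2.78, Grb10 by 2.75, Peg3 by 1.90, Igf2 by 1.86, Ptgds by 1.5, Nrep by 1.13 and Clu by 0.57. Endothelial cells held Ttr at 7052 and 19984 CPM in juvenile and adult samples, Clu at 86.4 and 346 CPM and Ptgds at 27.4 and 185 CPM, and the part of free epithelial RNA in these endothelial values was not tested. Fn1 differed by -2.07, Spock2 by -1.72, Igfbp7 by -2.30, Cdkn1c by -1.37 and Snrpn by -1.41. Some of these genes were hardly present in endothelial cells. Col27a1 lay at 2.31 and 1.23 CPM in juvenile and adult endothelial cells and Fras1 at 1.10 and 0.725 CPM, while Npnt lay at 29.6 and 10.6 CPM.

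Among regulators, Pabpn1 differed by 4.15, Dnmt3a by 3.90, Cpeb2 by 3.43, Brwd3 by 2.96, Nr4a2 by 2.96, Zic4 by 2.24, Rfx3 by 2.22, Jund by 1.73 and Cebpb by 1.37, and the clock genes Per1 by 2.76, Per3 by 1.94 and Tef by 1.61. Hopx differed by -5.06, Emx1 by -2.94, Ets1 by -1.78, Klf2 by -0.92 and H2afz by -1.56. The receptor genes Lepr and Gabbr1 differed by 2.44 and 1.72 and Ramp2 by -2.29.

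Of the remaining genes, Trf differed by -3.88, Fth1 by -3.16, Stra6 by -1.65, Dhrs3 by -1.38, Fdps by -1.60, Nsdhl by -1.48, Cox17 by -1.39, Cycs by -1.21, Ndufs5 by -1.01, Mrps33 by -0.77, Atp5l by -0.71, Dstn by -1.74, Dpp7 by -1.70, Ltc4s by -1.14, H2-D1 by -1.13 and Hspa5 by -0.80. Steap2 differed by 2.95, Atp7a by 2.84 and Scd2 by 0.73.

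A single juvenile library stood far from the others for 2 genes of the 124 groups of 4 libraries examined. Chance gives about 1 in 20, which is more than were found, so both are given as a description. Cox17 was low in Juvenile 2 (gap over range 0.941) and Vegfa was low in Juvenile 1 (0.867).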

How the results depend on the processing

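With near-identical libraries averaged, the juvenile minus adult differences were 6300.25 median UMIs per cell, 1.71 percentage points of mitochondrial and 2.02 of ribosomal UMIs, each at the smallest p that the exact permutation test then allows (0.333). Leaving out 1 library at a time gave 6047.5 to 6765.3 UMIs, 1.57 to 1.80 and 1.45 to 2.06 percentage points, again each at the smallest possible p, above 0.05. DESeq2 called 3534 genes and the Ttr limit of 5% left 258 (179 higher, 79 lower), and the cause was not tested. The other settings called 4871 to 6777 genes, and leaving out 1 library, Adult 1 aside, 5168 to 5542.

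Of the 111 genes given that were called, 110 kept their call in the fit with the replicate number as a block (5806 calls), and Kcnj13 lost it (adjusted p = 0.0522). That fit kept every library separate, so near-identical libraries counted as replicates in it. Deviations of same-numbered libraries from the mean of their age correlated at 0.214, -0.174 and 0.218, and only number 3 correlated best with itself. Near-identical libraries share such deviations, so this check cannot tell whether the numbers pair the libraries. After the planned subtraction of free RNA, which took all other kept cells as its profile, Lsr reversed to 3.43, H2-D1 to 8.23 and Hspa1a to 0.81, and with cells outside the Ttr and marker limits to 3.56, 8.25 and 0.75. These values depend on the prior count, since 0 to 2 adult UMIs of Lsr and 0 of H2-D1 were left, and Hspa1a kept UMIs in Adult 1 only among the adult libraries. Lowering the Ttr limit to 5% ended the call of 84 of the 111, left 27 and turned the direction of Cebpb (-0.34) and Jund (-0.39), and the log2 change of Jund was -0.089 with no limit on Cldn5 and Flt1 and -0.017 with that limit as a share of 0.2%. Without the limit 12 of the 111 lost their call. Matched depth, no TMM factors, both other forms of the limit on Cldn5 and Flt1, the last subtraction and Juvenile 1 and 2 as the only juvenile libraries were chosen after seeing the data. The 2 samples per age limit every test.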

Other observations

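Xist, the RNA of the inactive X chromosome, lay at 130, 108, 49.5 and 55.1 CPM in Juvenile 1 to 4 and at 36.5, 7.99 and 12.4 CPM in Adult 1 to 3 (edgeR, log2 fold change 1.93, adjusted p = 0.183). The 2 juvenile libraries with Y-linked genes, Juvenile 3 and 4, were the lower juvenile libraries for Xist and still above every adult library. Beside Ddx3y, they held Eif2s3y at 13.2 and 14 CPM and Kdm5d at 5.59 and 6.01 CPM, and both genes were at 0 in the other 5 libraries.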
